A study of Saccharomyces cerevisiae with 12 samples.

Results

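The genes described here are those that encode proteins of the mitochondrial ribosome of budding yeast and whose symbol is MRP, MRPL or MRPS followed by a number. Membership follows from the symbol only, and 56 of the 5574 named genes on the main array platform matched. RefSeq gives ribosomal protein names to 55 of them, of which 38 belong to the large subunit and 17 to the small subunit. MRP8 matched by name only and has no such ribosomal name. Of the 55, 37 have a counterpart in bacterial ribosomes and 18 are specific to mitochondrial ribosomes, by the prefix of the RefSeq name.

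The mitochondrial ribosome translates the few proteins that the mitochondrial genome encodes, nearly all of them core subunits of the respiratory chain and of ATP synthase. Almost all of its own proteins are encoded in the nucleus, made in the cytosol and imported, so that they must be produced in step with mitochondrial rRNA. In budding yeast respiration is strongly repressed while glucose is plentiful, and genes of the mitochondrial translation machinery are known to respond to carbon source and growth rate.

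Total RNA of a deletion mutant and of a wild-type strain, FY2, was hybridised together to two-channel spotted arrays. The mutants were FY31, deleted for SNF2, and YPS1, deleted for SWI1. Snf2 is the motor ATPase and Swi1 a large subunit of Snf/Swi, a complex that moves nucleosomes. Cultures in minimal medium or in rich YPD medium made 4 groups of 3 arrays. According to the labels there is 1 strain per genotype, with no other alleles given. Nothing says that replicate arrays were separate cultures, and the p-values may therefore reflect technical spread alone.

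Values are log2 ratios, centred so that the median gene of each array is 0, with the spots of a gene averaged. Signs give mutant over wild type. That direction is likely but is not stated: the wild type is listed first in the labels and sits in channel 2, and ScanAlyze, the image software, divides channel 2 by channel 1. With the opposite reading every lower value below becomes a higher one. The deleted genes did not bear it out. SNF2 lay above 0 on all 4 tested snf2 arrays, at 0.79 and 1.00 in minimal and 0.69 and 0.65 in rich medium, and near or below 0 on the tested swi1 arrays (-0.11, 0.00, -0.08 and -0.73), which goes against this direction. On replicate 1 SNF2 read 0.43 on the snf2 minimal array and -0.68 on the rich one. SWI1 was mixed, at -0.83 to 1.35 on the swi1 arrays. The direction is therefore not settled, and groups are named by their labels. Replicates 2 and 3 of every group, 8 arrays of 1 platform, entered limma fits with n = 2 arrays per group. A gene counts as called where its p, adjusted by Benjamini-Hochberg over all genes tested, is under 0.05. Replicate 1, on other platforms, was set beside these values without a test. Between 3850 and 5529 genes were measured on each of the 8 arrays, fewest on snf2 rich replicate 3, and the small number of arrays limits the precision.

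The genes were measured unevenly. Of the 56, 31 had values on all 8 arrays, and 31 could be tested in each mutant and medium, 18 in 3 of these 4 groups, 5 in 2, 1 in 1 and 1 in none. The untested gene was MRPL6, a large-subunit protein, with 1 value of -3.97 on snf2 minimal replicate 2. Only 34 of the 56 were measured on both snf2 rich arrays, so counts in that group cover fewer genes.

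Mitochondrial ribosomal protein genes lay below the median gene in all 4 groups. In rich medium 28 of 50 were called lower on the swi1 arrays (56.0%, against 21.7% of all genes) and 13 of 34 on the snf2 arrays (38.2%, against 22.2%). In minimal medium 9 of 53 were called lower on the snf2 arrays (17.0%, against 16.4% of all genes) and 7 of 52 on the swi1 arrays (13.5%, against 14.8%), which is near the share of all genes. Calls in either direction were made for 29.2% of all genes in snf2 minimal, 28.5% in its swi1 counterpart, 41.7% in snf2 rich and 40.8% in its swi1 counterpart. None of the genes tested reached a fitted 2-fold change in any group. The counts depended on the arrays used: without replicate 2 or replicate 3 of the group, 3 or 1 were called lower in snf2 minimal, 0 in either fit on the swi1 arrays in minimal medium, 12 or 17 in snf2 rich and 13 or 12 in swi1 rich. In minimal medium these are 5.66% and 1.79% of the genes on the snf2 arrays, against 10.2% and 8.1% of all genes, and 0% on the swi1 arrays, against 6.01% and 8.02%. In rich medium they are 32.4% and 33.3% on the snf2 arrays, against 14.8% and 12.6% of all genes, and 25% and 22.6% on the swi1 arrays, against 16.2% and 11.3%. With all 12 arrays and platform fitted as a random effect, 3 were called lower in snf2 rich and 0 in the other 3 groups, while 6.33% to 14.5% of all genes were called over the 4 groups. Of all genes, 9.55% were called lower in snf2 rich in that fit and 4.54% to 5.09% in the other groups.

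On the snf2 arrays the median over the genes tested was -0.19 in minimal and -0.31 in rich medium, and on the swi1 arrays it was -0.10 and -0.41, where the medians of all genes lay between 0.00 and 0.01. Values below 0 made up 81.1% and 91.2% of the genes on the snf2 arrays and 71.2% and 92.0% on the swi1 arrays, against 48.6% to 50.2% of all genes. The moderated standard error of a single gene had a median of 0.11 or 0.12 in each group. With all 12 arrays and the platform block the medians were -0.09 and -0.10 on the snf2 arrays and -0.03 and -0.40 on the swi1 arrays, in minimal and rich medium. In minimal medium 43 genes on the snf2 arrays and 37 on the swi1 arrays lay below 0, and most of them were not called.

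By array, the medians were -0.33, -0.17 and -0.22 for replicates 1 to 3 of snf2 minimal and -0.14, -0.13 and -0.11 for swi1 minimal. In rich medium they were -0.34, -0.43 and -0.36 for swi1. The snf2 rich arrays read 0.40, -0.40 and -0.42, so replicate 1 had the opposite sign. That array stood apart from the others in all genes as well: the standard deviation over genes was 1.41, against 0.55 to 0.83 on the other 11 arrays. On it 30 of 38 measured mitochondrial ribosomal protein genes lay above 0. As a replicate 1 it entered none of the fits of 8 arrays.

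**Figure D1:**
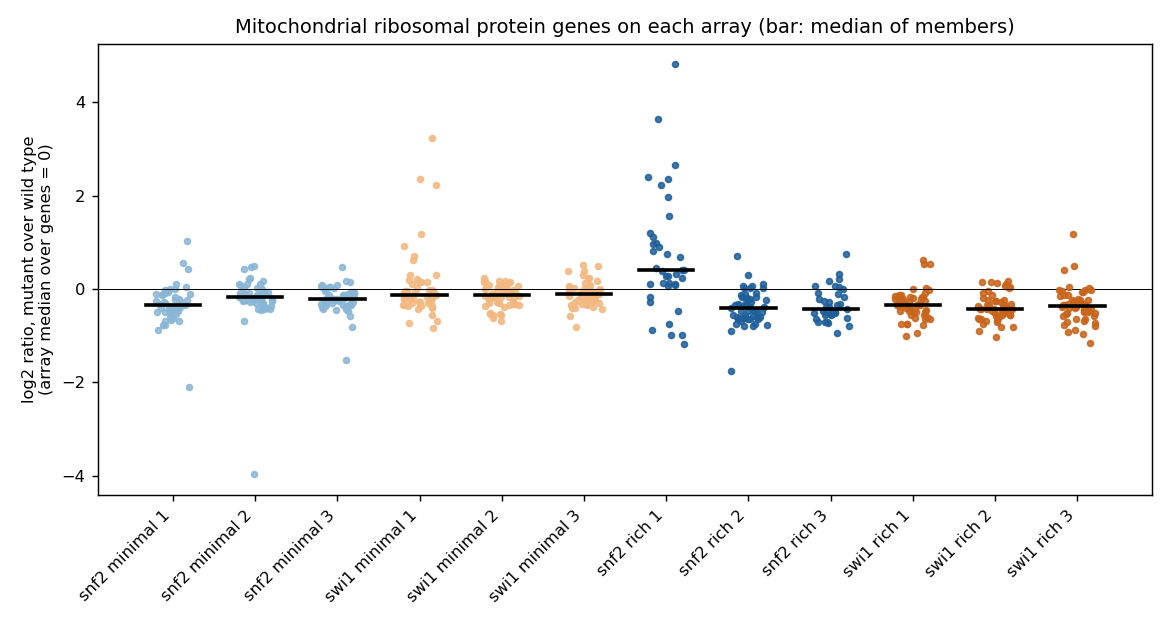
Log2 ratio of mutant over wild type (y axis, array median over genes at 0) for every measured mitochondrial ribosomal protein gene, as points, on each of the 12 arrays (x axis), with a bar at their median. The medians lie between -0.43 and -0.11 on 11 arrays and at 0.40 on snf2 rich replicate 1, where the points also spread most.

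Genes of both subunits were called lower. In swi1 rich 20 of 35 large-subunit genes (57.1%) and 8 of 15 small-subunit genes (53.3%) were called lower, against 21.7% of all genes. The genes of each subunit had a median of -0.41. In snf2 rich the counts were 10 of 25 (40%) and 3 of 9 (33.3%), against 22.2% of all genes. The medians were -0.30 and -0.33. In minimal medium 7 of 35 large-subunit genes (20%) were called lower on the snf2 arrays and 7 of 36 (19.4%) on the swi1 arrays. For small-subunit genes the counts were 2 of 17 (11.8%) and 0 of 15 (0%), where 16.4% and 14.8% of all genes were called lower. In snf2 minimal 7 large-subunit and 8 small-subunit genes had a value below 0 and an unadjusted limma p under 0.05. The medians there were -0.17 and -0.23. In swi1 minimal these counts were 11 and 1, and the medians -0.18 and -0.07. Genes with a bacterial counterpart and those specific to mitochondria had medians of -0.40 and -0.41 in swi1 rich. Of these, 17 of 34 (50%) and 11 of 16 (68.8%) were called lower. The difference between these shares was not tested, nor were differences between the subunits.

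Among the large-subunit genes in rich medium, MRPL3 and MRPL19 were called lower in both mutants whichever array was left out. MRPL3 encodes a mitochondrion-specific protein with an RNase III-like fold. On replicates 2 and 3 it read -0.74 and -0.91 in swi1 rich and -0.63 and -0.71 in snf2 rich, and replicate 1 read -0.17 and -1.19 in these groups. All 6 rich arrays were below 0. The fitted changes were -0.83 ± 0.10 (SE, n = 2 arrays, limma adjusted p = 0.000941) and -0.67 ± 0.10 (adjusted p = 0.00183). In minimal medium MRPL3 read -0.14 and -0.23 on the snf2 arrays and -0.33 and -0.10 on the swi1 arrays, and neither was called.

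MRPL19 encodes the counterpart of bacterial L11, at the base of the stalk where elongation factors bind. It read -0.89 and -0.71 on snf2 rich replicates 2 and 3 and -0.89 and -0.65 on the swi1 ones. Replicate 1 read 0.27 and -0.25. The 2 tested arrays of each group were thus alike, and in snf2 rich replicate 1 had the opposite sign. The changes were -0.80 ± 0.12 (SE, limma adjusted p = 0.00303) in snf2 rich and -0.77 ± 0.12 (adjusted p = 0.00398) in swi1 rich. MRPL19 overlaps YNL184C and MRP4, below, overlaps YHL005C. Probe strand was not known, so signal of the overlapping genes cannot be told apart.

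The lowest fitted value in swi1 rich was that of MRPL31, a mitochondrion-specific large-subunit gene, at -0.92 ± 0.16 (SE, limma adjusted p = 0.00848). Replicates 1 to 3 read -0.57, -0.68 and -1.16, and the call was lost without replicate 3 (adjusted p = 0.0682). MRPL11, which encodes the counterpart of bacterial L10, the protein that anchors the stalk, read -0.13, -0.65 and -0.87 in swi1 rich. Its change of -0.76 ± 0.11 (limma adjusted p = 0.00295) was called without either array. MRP4, the small-subunit counterpart of bacterial S2, read -0.14, -0.82 and -0.70 there, with a change of -0.76 ± 0.11 (limma adjusted p = 0.00304) that was also called without either array. In each of these 3 genes replicate 1 was the least negative of the swi1 rich arrays.

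In snf2 rich the largest changes beside MRPL19 were those of MRPL27, MRP7, MRPL3 and MRP13. MRPL27 is a mitochondrion-specific large-subunit gene that read -0.62 and -0.94, a change of -0.78 ± 0.16 (SE, limma adjusted p = 0.00677). On snf2 rich replicate 1 it read 1.12, of the opposite sign. Its 2 spots were both below 0 on replicates 2 and 3, but on swi1 rich replicate 3 they read -0.63 and 0.71, and MRPL27 was not called there. Without snf2 rich replicate 3 its call was lost (adjusted p = 0.0931). MRP13, a mitochondrion-specific small-subunit gene, read -0.60 and -0.73 on snf2 rich replicates 2 and 3, and -0.94, -0.48 and -0.34 on swi1 rich replicates 1 to 3, with no value on snf2 rich replicate 1. It was called in both, at -0.67 ± 0.11 (limma adjusted p = 0.00254) and -0.41 ± 0.11 (adjusted p = 0.02).

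The plot of rich-medium changes gives every tested gene in both mutants. Apart from the genes named above, MRPL22 and MRPS17 in snf2 rich, and MRPL24 and MRPL32 in swi1 rich, kept their calls without either array. These 4 were singled out after their values were seen. Thus 5 of the 13 lower calls in snf2 rich and 6 of the 28 in swi1 rich did not depend on any 1 array. A fit without an array leaves 1 in the group, which is taken to vary as the other groups do. Replicate 1, outside these fits, read 3.63 for MRPL22 and 1.965 for MRPS17 in snf2 rich. In swi1 rich it read -0.45 for MRPL24 and 0.632 for MRPL32. MRPL22, MRPS17 and MRPL32 thus had the opposite sign on the array that was not fitted.

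**Figure D2:**
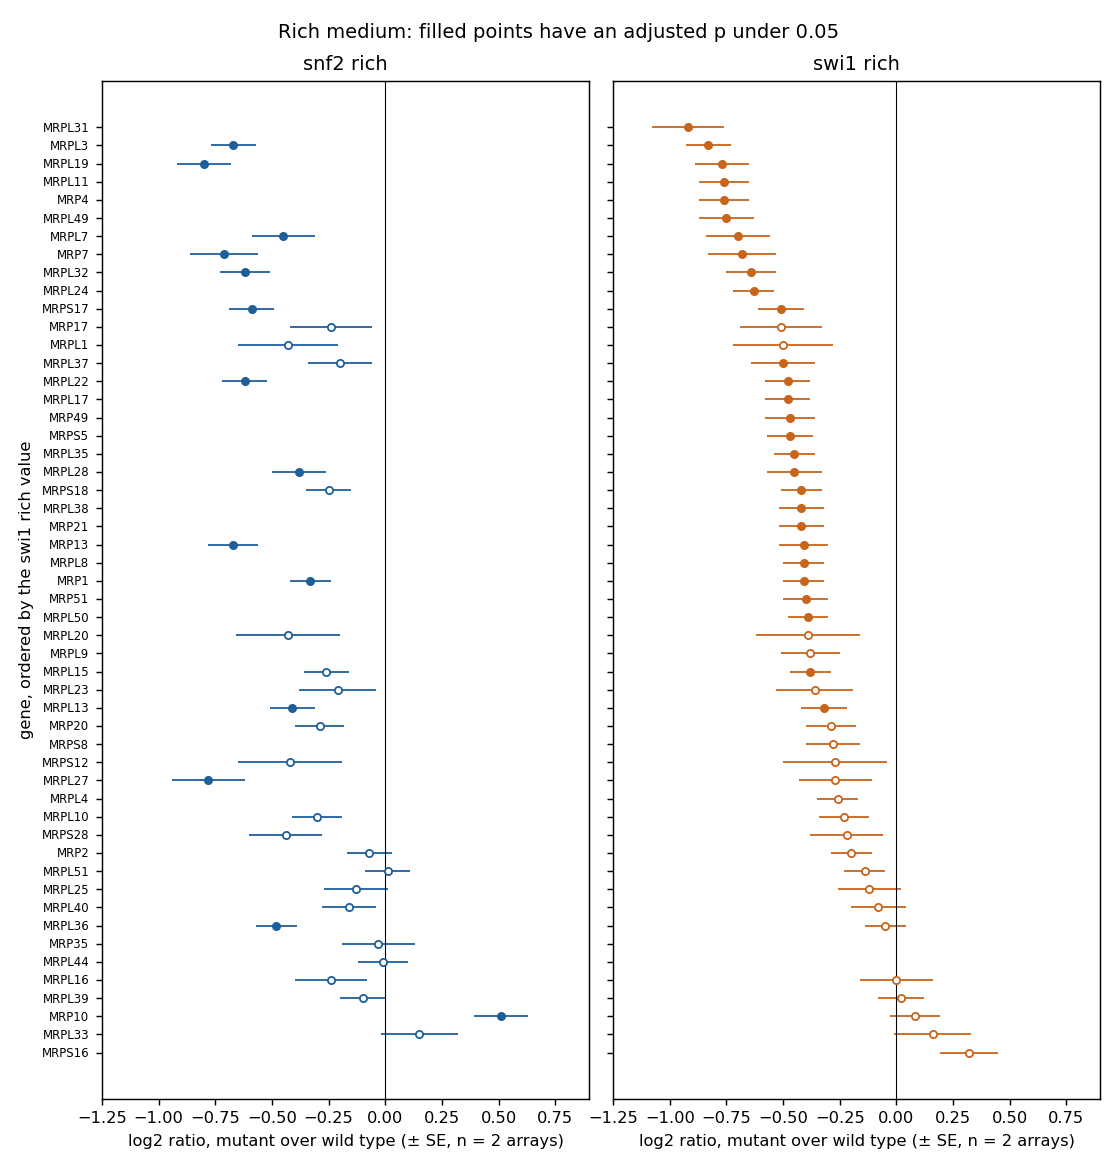
Log2 ratio of mutant over wild type in rich medium (x axis, with moderated SE, n = 2 arrays) for each mitochondrial ribosomal protein gene tested (y axis, ordered by the swi1 value), snf2 at left and swi1 at right. Filled points have an adjusted p under 0.05, and 31 of 34 values at left and 46 of 50 at right lie below 0.

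In minimal medium 9 genes were called lower on the snf2 arrays and 7 on the swi1 arrays. MRP7 encodes the counterpart of bacterial L27, which lies close to the peptidyl transferase centre. It was tested in all 4 groups and was called lower in each. In minimal medium it read -0.31 and -0.80 on the snf2 arrays and -0.68 and -0.28 on the swi1 arrays. In rich medium it read -0.63 and -0.79 on the snf2 arrays and -0.64 and -0.73 on the swi1 arrays. Replicate 1 of the 4 groups read -0.11, -0.22, 0.12 and -0.22 in the same order, closer to 0 in every group. The fitted changes, in that order, were -0.55 ± 0.15 (SE, limma adjusted p = 0.0267), -0.48 ± 0.15 (adjusted p = 0.046), -0.71 ± 0.15 (adjusted p = 0.00724) and -0.68 ± 0.15 (adjusted p = 0.00914). Each call was lost without at least 1 of its arrays, with adjusted p values from 0.0705 to 0.374 in the fits that lost it.

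MRPL11 and MRPL50 were tested in 3 groups and called lower in each. MRPL50 encodes the counterpart of bacterial L9. On the snf2 arrays it read -0.87, -0.41 and -0.37 in minimal medium. On the swi1 arrays it read -0.68, -0.33 and -0.44 in minimal medium and -0.62, -0.36 and -0.41 in rich medium. All 9 values lay below 0. The change was -0.39 ± 0.09 in each group (SE, limma adjusted p = 0.0193, 0.0221 and 0.0155), and no single-array fit called it. On snf2 rich replicate 1 it read 1.57 and on replicate 2 -0.63. MRPL11 read -0.21, -0.43 and -0.32 in snf2 minimal and -0.20, -0.51 and -0.26 in swi1 minimal. It changed by -0.37 ± 0.11 (adjusted p = 0.0467) in snf2 minimal and -0.38 ± 0.11 (adjusted p = 0.0445) in swi1 minimal.

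The largest change in minimal medium was that of MRPS12 in snf2 minimal. MRPS12 encodes the counterpart of bacterial S12, a protein of the decoding centre. Replicates 1 to 3 read 0.00, -0.44 and -1.53, and the change of -0.98 ± 0.23 (SE, limma adjusted p = 0.0173) lost its call without replicate 3 (adjusted p = 0.144). MRPL8 and MRPL32, which encode counterparts of bacterial L17 and L32, changed by -0.43 ± 0.09 (adjusted p = 0.0163) and -0.42 ± 0.11 (adjusted p = 0.0237) in the same group. MRPL32 protein is known as a substrate of the m-AAA protease, whose cleavage allows its assembly into ribosomes. Its snf2 minimal arrays read -0.45, -0.27 and -0.57. On replicate 1 of swi1 minimal it read 3.24, the highest value of any of these genes there, where replicates 2 and 3 read -0.30 and -0.34.

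In swi1 minimal MRPL38 and MRPL15 were called beside MRP7, MRPL50 and MRPL11. MRPL38, the counterpart of bacterial L14 at the face between the subunits, read -0.30, -0.39 and -0.34 and changed by -0.36 ± 0.10 (SE, limma adjusted p = 0.0419). MRPL15, a mitochondrion-specific partner of MRPL3, read -0.29 and -0.38 and changed by -0.33 ± 0.09 (adjusted p = 0.0336). No lower call in minimal medium on either mutant held without each of its arrays in turn.

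Apart from snf2 rich replicate 1, which was set aside after its values were seen, 10 of the 55 genes with at least 6 values lay below 0 on every array that measured them, and 0 lay above 0 on every array. The 10 were MRP7, MRP21, MRPL11, MRPL15, MRPL22, MRPL38, MRPL49, MRPL50, MRPS5 and MRPS12. Over the 4 groups 31 genes were called lower at least once, 2 were called higher at least once, and 23 were called in none. None of these genes was called lower in 1 group and higher in another. The counts in this paragraph were not set against all genes, so whether they are unusual cannot be read from them.

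**Figure D3:**
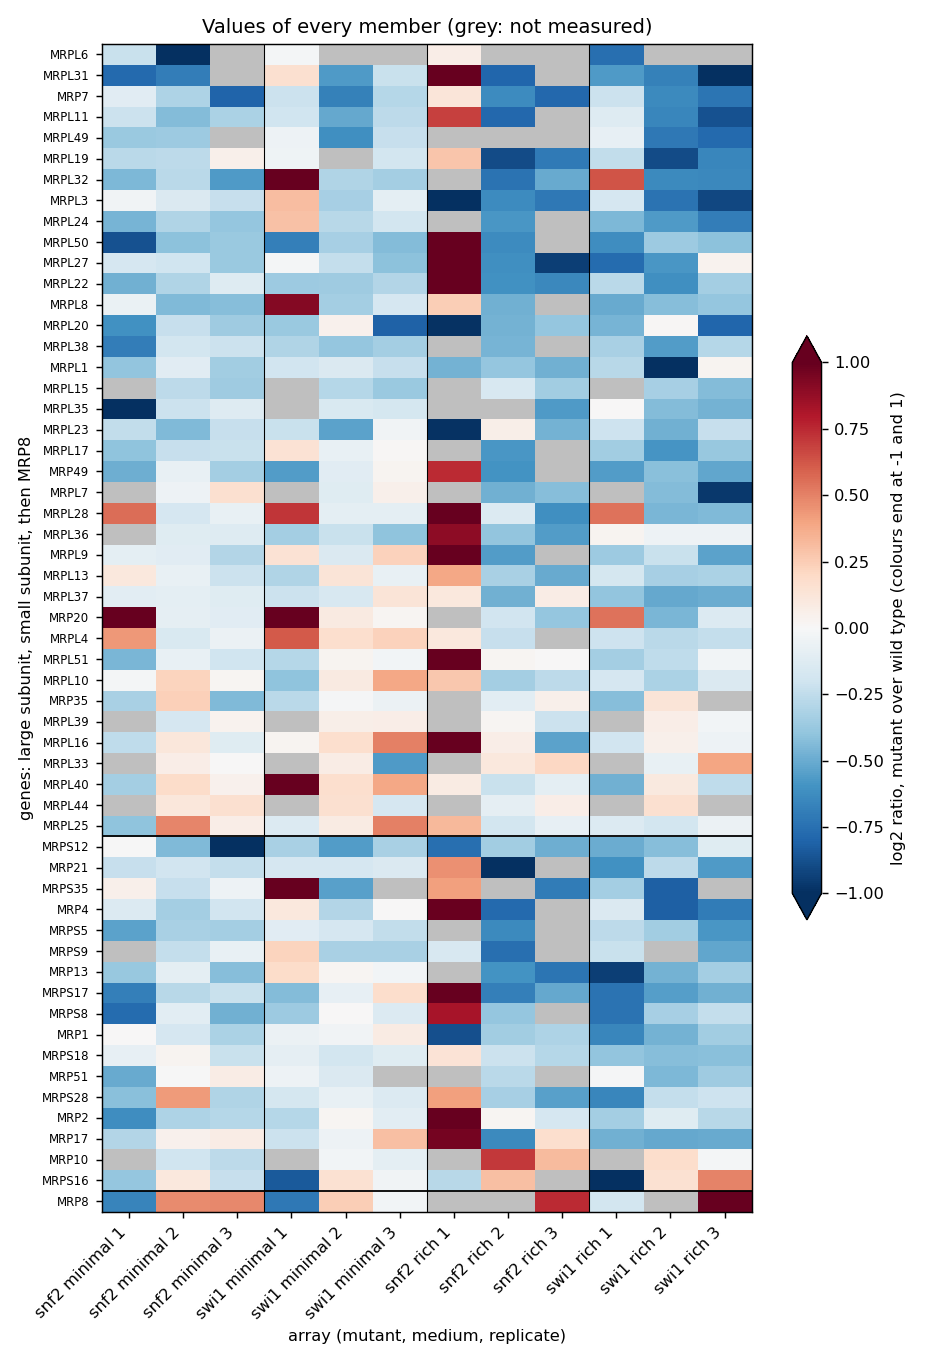
Log2 ratio of mutant over wild type (colour, blue below 0 and red above, ending at -1 and 1) of all 56 genes (y axis, large subunit, small subunit and MRP8 separated by lines) on the 12 arrays (x axis), grey where not measured. Blue fills most of the rich-medium columns of replicates 2 and 3 and red most of the column of snf2 rich replicate 1.

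Of the genes tested, 1 of 34 was called higher in snf2 rich (2.94%, against 19.5% of all genes) and 1 of 53 in snf2 minimal (1.89%, against 12.8%). On the swi1 arrays 0 were called higher in limma's fits in either medium, against 13.7% and 19.1% of all genes, and 1 in each had an unadjusted p under 0.05 and a value above 0. The 2 called genes were MRP10 and MRP8. MRP10 encodes a small-subunit protein specific to mitochondria, with paired cysteine motifs. On the snf2 arrays it read -0.20 and -0.26 in minimal and 0.71 and 0.32 in rich medium. On the swi1 arrays it read -0.03 and -0.10 in minimal and 0.18 and -0.02 in rich medium. Replicate 1 gave no value. Both snf2 rich arrays lay above the other 6. The change there was 0.51 ± 0.12 (SE, limma adjusted p = 0.0107), and without replicate 2 it was 0.32 (adjusted p = 0.14). On snf2 rich replicate 2 its spots read 1.23 and 0.18, and on replicate 3 only the first of them was measured, at 0.32.

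MRP8 is a protein of unknown function, taken at first for a mitochondrial ribosomal protein from its sequence. It read 0.47 and 0.48 on snf2 minimal replicates 2 and 3 but -0.66 on replicate 1. The change was 0.47 ± 0.11 (SE, limma adjusted p = 0.0281), and the call was lost without either array (adjusted p = 0.16 and 0.175). Single values of 0.74 in snf2 rich and 1.19 in swi1 rich, each on replicate 3, could not be tested. Leaving MRP8 out changed none of the counts of lower calls.

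The arrays of replicate 1 give a reading on other platforms. Of the genes called lower and measured there, 8 of 8 in snf2 minimal were below 0 on replicate 1, as were 6 of 6 on the swi1 arrays in minimal medium and 23 of 26 in rich medium. The shares over all genes called lower were 86.5%, 86.8% and 75.9%. In snf2 rich 2 of 10 were below 0, against 68.6% of all genes called lower. Of all mitochondrial ribosomal protein genes tested in swi1 rich, called or not, 39 of 45 had the same sign on replicate 1 (86.7%, against 62.0% of all genes). Of all those measured on replicate 1, 87.5% in snf2 minimal, 67.3% in swi1 minimal, 21.1% in snf2 rich and 90% in swi1 rich lay below 0. Across these genes replicate 1 correlated with replicates 2 and 3 at 0.00 and -0.03 in snf2 minimal and -0.01 and 0.10 in swi1 minimal. In rich medium this was 0.10 and -0.01 for snf2 and -0.20 and -0.10 for swi1. Over all genes it was 0.23 to 0.58.

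Of the 56 genes, 11 had 2 spots on the main platform, which gave 73 pairs of spots on the same array. The spots of a pair differed by a median of 0.23 and by up to 1.34 (MRPL27 on swi1 rich replicate 3), and the signs differed in 20 pairs.

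Whether the changes differ between the mutants was tested within each medium. No gene differed between the snf2 and swi1 arrays in limma's fits, with 0 of 50 called in minimal medium (0% of all genes) and 0 of 32 in rich medium (0.0294% of all genes). At an unadjusted p under 0.05 there were 1 and 2. The 95% intervals of the differences had a median half-width of 0.36 in minimal and 0.39 in rich medium, and in 49 of 50 and 31 of 32 genes the interval lay within 1 log2 unit of 0. Smaller differences were not detectable with 2 arrays a group, and a lack of calls does not show that the mutants act alike.

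Whether the changes depend on the medium was tested within each mutant. Minimal minus rich medium had a median of 0.20 over 34 genes on the snf2 arrays and 0.31 over 48 genes on the swi1 arrays, where the medians of all genes were 0.02 and 0.05. When 1 array was left out the medians were 0.13 to 0.30 and 0.25 to 0.33, and with all 12 arrays and the platform block they were 0.05 and 0.39. The value was above 0, that is less negative in minimal medium, in 26 of 34 and in 42 of 48 genes. Over all genes it was above 0 in 1903 of 3559 and in 2706 of 4890. Single differences passed the test in 1 gene of each mutant, against 5% and 6.26% of all genes. At an unadjusted p under 0.05 there were 9 on the snf2 arrays, 8 of them above 0, and 16 on the swi1 arrays, all above 0. Over all genes there were 753 of 3559, 355 of them above 0, and 1247 of 4890, 671 of them above 0.

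On the swi1 arrays the called gene was MRPL3, with a difference of 0.61 ± 0.14 (SE, n = 2 arrays a group, limma adjusted p = 0.0476). Its minimal arrays at -0.33 and -0.10 did not overlap the rich ones at -0.74 and -0.91. On the snf2 arrays its difference was 0.49 ± 0.14 and was not called (adjusted p = 0.11). The gene called on the snf2 arrays was MRP10, which ran the other way, at -0.74 ± 0.16 (limma adjusted p = 0.0454), from -0.20 and -0.26 in minimal medium to 0.71 and 0.32 in rich medium. Both calls lay close to the threshold. That of MRPL3 was lost without any 1 of its 4 arrays (adjusted p from 0.059 to 0.205), and that of MRP10 was lost in 3 of 4 such fits, with adjusted p up to 0.172.

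**Figure D4:**
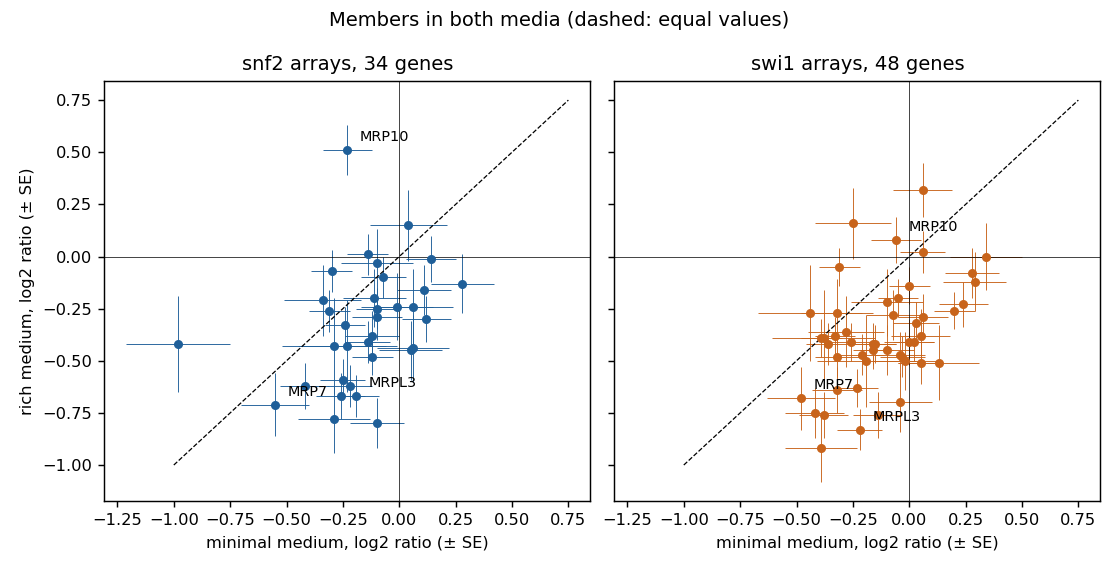
Log2 ratio of mutant over wild type in rich medium (y axis) against minimal medium (x axis), each ± moderated SE (n = 2 arrays), for the genes tested in both, 34 on the snf2 arrays at left and 48 on the swi1 arrays at right. Points under the dashed line of equal values are lower in rich medium, as 26 and 42 genes are.

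Genes next to these on the chromosomes were called lower about as often as all genes. The 56 genes lie on 12 chromosomes, and none of them adjoins another. Of the 111 neighbouring genes on the arrays, 16 of 107 (15%) were called lower in minimal and 17 of 75 (22.7%) in rich medium on the snf2 arrays, and 16 of 105 (15.2%) and 21 of 103 (20.4%) on the swi1 arrays. Their medians lay between -0.04 and 0.01, near those of all genes.

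Other parts of the mitochondrial translation machinery, given as lists of gene symbols, were set beside the named genes. Mitochondrial ribosomal proteins with other symbols showed 9 of 21 lower and 2 higher in swi1 rich (42.9% lower, against 21.7% of all genes). In snf2 rich 6 of 13 were lower (46.2%, against 22.2% of all genes). The medians were -0.31 and -0.37. In minimal medium 3 of 22 were called lower on the snf2 arrays and 2 of 20 on the swi1 arrays, with medians of -0.09 and -0.08. These are 13.6% and 10%, against 16.4% and 14.8% of all genes. On replicate 1 the medians were -0.22 in snf2 minimal, 0.08 in swi1 minimal, 0.37 in snf2 rich and -0.33 in swi1 rich. Named examples were RML2, which encodes the counterpart of bacterial L2, at -0.68 ± 0.14 in snf2 rich (SE, limma adjusted p = 0.00824), and MNP1, the counterpart of the stalk protein L12, at -0.85 ± 0.16 in swi1 minimal (adjusted p = 0.0114). RSM24, of the small subunit, changed by -0.66 ± 0.10 in swi1 rich (adjusted p = 0.00306).

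Genes for mitoribosome assembly and mitochondrial transcription were called lower in 7 of 13 on the snf2 arrays in rich medium. That share is 53.8%, where all genes gave 22.2%. The swi1 arrays had 6 of 13 lower in rich medium (46.2%, where all genes gave 21.7%). Each mutant had 1 higher call in that medium. Minimal medium gave 2 of 14 lower calls for snf2 and 1 of 16 for swi1. Those shares, 14.3% and 6.25%, lay below the 16.4% and 14.8% of all genes. MSS116, a DEAD-box helicase needed for splicing of mitochondrial introns, was called lower in all 4 groups. It changed by -0.64 ± 0.13 in minimal and -1.32 ± 0.13 in rich medium on the snf2 arrays, and by -0.68 ± 0.13 and -1.22 ± 0.13 on the swi1 arrays (SE, limma adjusted p from 0.000303 to 0.00947). RPO41, the mitochondrial RNA polymerase, differed between media on the swi1 arrays by 0.73 ± 0.13 (adjusted p = 0.0198). MBA1, which tethers the ribosome to the inner membrane, changed by -0.84 ± 0.13 in swi1 rich (adjusted p = 0.00263).

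Translation factors and mRNA-specific activators were called lower in 9 of 23 in swi1 rich and 4 of 16 in snf2 rich, with 2 and 3 higher. The lower calls are 39.1% and 25%, against 21.7% and 22.2% of all genes. In minimal medium 2 of 22 were called lower and 1 higher on the snf2 arrays, with a median of 0.02. On the swi1 arrays 1 of 23 was lower and 2 higher, with a median of 0.00. The lower calls are 9.09% and 4.35%, against 16.4% and 14.8% of all genes. On replicate 1 the medians were 0.03 in snf2 minimal, 0.10 in swi1 minimal, 0.97 in snf2 rich and -0.07 in swi1 rich. TUF1, the mitochondrial elongation factor Tu, changed by -0.80 ± 0.10 in swi1 rich (SE, limma adjusted p = 0.00106) and -0.51 ± 0.10 in snf2 minimal (adjusted p = 0.00797). PET309, an activator of COX1 translation, changed by -0.66 ± 0.10 in snf2 rich (adjusted p = 0.00208) and -0.59 ± 0.10 in swi1 rich (adjusted p = 0.00361), whereas PET122, an activator of COX3 translation, changed by 0.94 ± 0.26 in snf2 rich (adjusted p = 0.0252). Of the mitochondrial aminoacyl-tRNA synthetases and other charging factors, 1 of 16 was called lower in swi1 rich (MST1, a threonyl-tRNA synthetase, at -0.43 ± 0.12) and 0 of 7 in snf2 rich, where 2 had an unadjusted p under 0.05. The shares called lower were 6.25% and 0%, against 21.7% and 22.2% of all genes, and the rich-medium medians were -0.08 and -0.14. On replicate 1 the median was 0.03 in swi1 rich and 0.87 in snf2 rich. In minimal medium limma called 0 of 16 lower and 1 higher on the snf2 arrays, and 0 of 15 lower and 2 higher on the swi1 arrays, with medians of 0.10 and 0.12. Values below 0 with an unadjusted p under 0.05 numbered 1 and 0. In those groups 16.4% and 14.8% of all genes were called lower, and 12.8% and 13.7% higher.

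The nuclear-encoded subunits of the respiratory chain and ATP synthase, partners of the proteins that these ribosomes make, were mixed on the tested arrays. In swi1 rich 10 of 33 were called lower and 0 higher, and in snf2 rich 5 of 22 lower and 4 higher. The lower calls are 30.3% and 22.7%, against 21.7% and 22.2% of all genes. In minimal medium 4 of 34 were lower and 5 higher on the snf2 arrays, and 3 lower and 8 higher on the swi1 arrays. The lower calls there are 11.8% and 8.82%, against 16.4% and 14.8% of all genes. The higher calls are 14.7% and 23.5%, against 12.8% and 13.7%. On replicate 1 the medians were -0.45 in snf2 minimal, -0.42 in swi1 minimal, -0.05 in snf2 rich and -0.07 in swi1 rich. Of the replicate 1 values in minimal medium, 33 of 33 on the snf2 array and 31 of 33 on the swi1 array lay below 0. CYC1, which encodes the main cytochrome c, changed by -1.30 ± 0.11 in snf2 rich (SE, limma adjusted p = 0.000142) and -1.17 ± 0.11 in swi1 rich (adjusted p = 0.000346), and its differences between media were 1.66 ± 0.15 and 1.52 ± 0.15. COX5B, the isoform of cytochrome oxidase subunit V used at low oxygen, changed by -1.20 ± 0.12 in snf2 minimal and -1.06 ± 0.12 in swi1 minimal.

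Genes for the ribosome of the cytosol had lower medians than those for the mitochondrial ribosome in all 4 groups. Of these, 117 of 132 were called lower in minimal and 93 of 103 in rich medium on the snf2 arrays, with medians of -0.67 and -0.71. On the swi1 arrays 99 of 132 and 108 of 126 were called lower, with medians of -0.57 and -0.68. The lower calls are 88.6% and 90.3% on the snf2 arrays, against 16.4% and 22.2% of all genes. They are 75% and 85.7% on the swi1 arrays, against 14.8% and 21.7%. On snf2 rich replicate 1 the cytosolic ribosomal protein genes had a median of -1.01, while those of the mitochondrial ribosome, at 0.40, lay above 0. The difference between the lists was not tested.

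**Figure D5:**
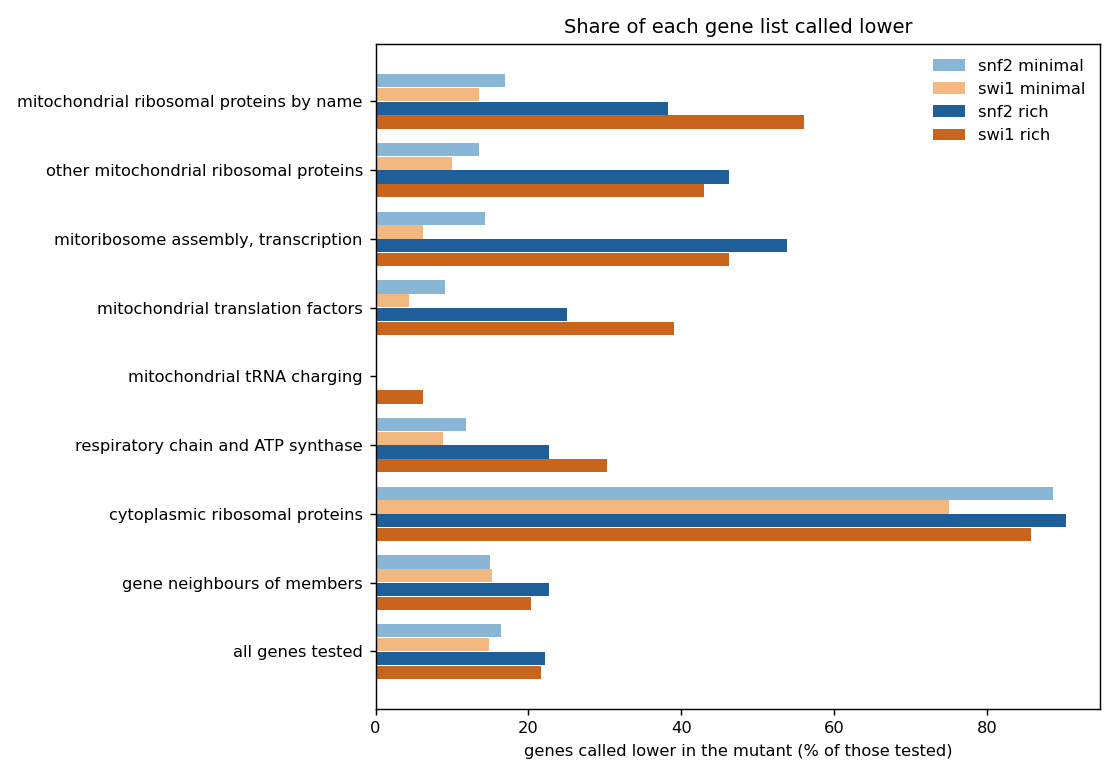
Share of each gene list called lower in the mutant (x axis, percent of the genes tested, limma adjusted p under 0.05) in the 4 groups (bar colours), with the neighbouring genes and all genes tested at the bottom. Bars of the mitochondrial ribosomal protein genes reach 38.2% and 56.0% in rich medium and 17.0% and 13.5% in minimal medium.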

How the data were processed

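Each deposited number is the log2 ratio between an array's channels, with a table for each of the 3 platforms. Images were read with ScanAlyze, per the labels (version 2.24 for the 8 arrays tested). Dyes, background correction, normalisation and filters are not given in the sources used here. Base 2 was settled from the values of the main table only.

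Signs were turned, each array was centred on its median over genes, and spots were averaged per gene. Probes were named from the platform tables, and ribosomal names and gene order came from RefSeq (R64). The fits used limma 3.58.1 (R 4.3.3) with the group means of the 8 arrays as coefficients, once per comparison (8 in all), keeping genes with values on both arrays of every group involved. Tests were two-sided. The procedure was tested on simulated data.

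The members, lists and tests were chosen with earlier results of these data known. Genes named were, per group, the 5 called members with the largest change and 1 sign on both arrays, members called in every group tested (at least 3), called differences, MRP8, and 2 called genes per list. Replicate numbers were not taken to pair arrays, since deviations of arrays with the same number correlated at -0.03 to 0.02. Whether wild-type RNA was shared between arrays is not given. RTC6, VAR1, ATP18 and ATP19 were not analysed here, nor were sequences.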

Additional observations from a re-analysis of the deposited data

Results flagged for a closer look

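Differences between minimal and rich medium passed limma's test in 1 gene of each mutant. On the swi1 arrays MRPL3 differed by 0.61 ± 0.14 (SE, n = 2 arrays a group, adjusted p = 0.0476), and on the snf2 arrays MRP10 differed by -0.74 ± 0.16 (adjusted p = 0.0454). These are 1 of 48 and 1 of 34 genes tested. In MRP10 the spots on snf2 rich replicate 2 read 1.23 and 0.18, and the part of that spot difference in the result was not tested. No group had 4 or more arrays, so single arrays were not tested as outliers.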

How the results depend on the processing

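The counts of genes called were 10 in snf2 minimal, 7 in swi1 minimal, 14 in snf2 rich and 28 in swi1 rich, 1 in each difference between media and 0 in each difference between mutants. Without centring, 6 and 1 were called in snf2 and swi1 minimal, and the median of all genes in snf2 rich moved from 0.01 to 0.12, with its calls over all genes moving from 721 higher and 822 lower to 998 and 630. Medians of the genes described here then were -0.12, -0.05, -0.20 and -0.32 in the 4 groups. On genes measured on all 8 arrays the counts were 4, 4 and, in swi1 rich, 13, of 31 tested. Lower calls there made up 12.9% in each mutant in minimal medium, against 17.7% and 16.1% of all genes, and 38.7% and 41.9% in rich medium, against 22.8%. With the replicate number as a block they were 7, 2, 12 and 29, with 0 in the difference between media on the swi1 arrays. With platform as a random block and all 12 arrays used they were 0, 0, 3 and 0, and 0 in both differences between media, while 6.33% to 14.5% of all genes were called in the 4 groups. By construction that fit treats arrays of 1 platform as correlated, and the size of the correlation was estimated from the data (0.483 to 0.501). The same fit without snf2 rich replicate 1, added after the data were seen, called 5 in snf2 rich and 0 in its difference between media. With 1 spot per gene both differences between media fell to 0, and with arrays scaled to a common spread that on the swi1 arrays did. Leaving out 1 array gave 1 to 3 in snf2 minimal, 0 in swi1 minimal, 13 to 18 in snf2 rich, 12 to 14 in swi1 rich, 0 to 2 in each difference between media, 0 between mutants in minimal and 0 to 1 in rich medium. The cause of these changes was not tested. No median larger than its spread between arrays changed sign; that of the difference between mutants in rich medium, -0.01, became 0.13 with all 12 arrays. No measure of signal against background was at hand, so dim spots could not be told from bright ones.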
